A study of Mus musculus with 8 samples.

Results

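The genes described here are 9 mouse genes of fasting metabolism and glucose production: Pck1, G6pc, Tat, Ppargc1a, Pdk4, Cpt1a, Igfbp1, Fgf21 and Angptl4. They were chosen by name, as every non-control probe whose gene name is on that list, and they are 9 of 37324 gene names on the array. Ppargc1a has 2 probes and each of the other genes 1, so 10 of 56605 non-control probes are concerned. The arrays come from male mice whose water over 3 weeks held lead acetate, 100 mg/L for the low-dose and 1000 mg/L for the high-dose groups, or was distilled water alone for the controls. Small pieces of brain, kidney and liver were taken, and 50 ng of total RNA from each was labelled with the dye Cy3. For brain and for kidney there are 3 arrays (control, low dose, high dose). Liver has a high-dose and a control array, and no low-dose liver array is among the samples. Strain, age, feeding state and hour of collection are not given in the sources used here, nor is the number of animals behind an array.

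Every group is a single array (8 groups, 8 arrays). Differences between groups therefore had no replicate check, and none is given a p-value within a tissue. The share of spots well above background ranged from 53.4% to 67.1%, and the 75th percentile of the scanner signal lay between 427 and 954. A level below is the log2 of a probe's signal minus the log2 of that percentile on its array, and a difference is a log2 difference of such levels for the same probe. The array error of a difference combines the errors that the scanner software gives for both spots. Calls of higher or lower needed a difference of at least 1 in size (2-fold) that also exceeded its array error 3 times over, with the probe well above background and unsaturated on both arrays. That call rule measures size against the scanner's error and not against the spread between animals. Marker genes followed the tissue labels, with a median level of 9.47 to 9.56 for hepatocyte markers in liver, 5.59 to 5.67 for proximal tubule markers in kidney and 4.65 to 4.71 for neuron markers in brain. In the high-dose kidney array all 7 measured of 8 sperm and testis markers were called higher than in control kidney, with a median difference of 2.73. In high-dose brain 4 of 4 measured were called higher, with a median of 3.74, and in low-dose kidney 2 of 5 were called lower, with a median of -0.98. In high-dose liver 0 of 3 were called. Of all measured genes, 1.66% were called in either direction in high-dose kidney and 0.492% in low-dose kidney. The shares were 0.452% in high-dose brain and 0.803% in high-dose liver. The part of the sperm and testis markers in the results below was not tested. In pieces of whole tissue, fewer cells of a type and less RNA per cell cannot be told apart.

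During fasting, glucagon and glucocorticoids raise glucose production in hepatocytes and in kidney proximal tubule cells, the main tissues that can release free glucose into the blood. Insulin opposes this after feeding, in part by keeping FOXO transcription factors out of the nucleus. In the fasted state, fatty acids released from fat serve as fuel and, through the nuclear receptor PPAR alpha, switch on genes of fat oxidation. Of the 9 genes, Pck1 and G6pc encode gluconeogenic enzymes, Tat an enzyme that breaks down tyrosine and Ppargc1a a transcriptional coactivator of the fasting program. Pdk4 and Cpt1a encode mitochondrial enzymes that set fuel choice. Igfbp1, Fgf21 and Angptl4 encode secreted proteins.

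The probes of the 3 genes on which the results turn lie on the plus strand of chromosome 11 for Igfbp1 (chr11:7102442-7102501), on the minus strand of chromosome 6 for Pdk4 (chr6:5433441-5433500) and on the plus strand of chromosome 8 for Tat (chr8:112523207-112523266), in the mm9 coordinates of the array files. Each probe has 60 bases, and the opening 30 are shown to identify what was measured.
Igfbp1: aaagttccgatgctgattgtgtaaccaaag
Pdk4: tatgaacccatgggagactttaaactcttg
Tat: gaagtcaccttggttcctgcctcacttcag

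RefSeq (build GRCm38.p6) gave a promoter window, 250 bases before to 50 after the start, for 8 of the 9 genes. The windows of Igfbp1 and Pdk4 are shown because these genes were called lower in high-dose liver, and that of Pck1 because it is the textbook promoter of gluconeogenesis and Pck1 was not called. Letters searched on both strands were CAAAACAA (the FOXO insulin response core), GTAAACA (forkhead), TGACGTCA (the full cyclic AMP response element) and TGACG (its shorter form, contained in the full one). Others were the direct repeat bound by nuclear receptors, the glucocorticoid receptor palindrome written as ACANNNTGT, and the E-box letters CACGTG. The D-box was searched as TTATGTAA. The letters TATAAA stood for the box that places the transcription start. Capitals mark a match.
Igfbp1: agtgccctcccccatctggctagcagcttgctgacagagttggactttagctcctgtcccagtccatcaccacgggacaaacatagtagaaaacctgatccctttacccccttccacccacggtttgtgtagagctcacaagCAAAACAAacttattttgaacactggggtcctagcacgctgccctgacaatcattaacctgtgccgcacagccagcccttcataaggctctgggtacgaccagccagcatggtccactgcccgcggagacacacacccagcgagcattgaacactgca
Pdk4: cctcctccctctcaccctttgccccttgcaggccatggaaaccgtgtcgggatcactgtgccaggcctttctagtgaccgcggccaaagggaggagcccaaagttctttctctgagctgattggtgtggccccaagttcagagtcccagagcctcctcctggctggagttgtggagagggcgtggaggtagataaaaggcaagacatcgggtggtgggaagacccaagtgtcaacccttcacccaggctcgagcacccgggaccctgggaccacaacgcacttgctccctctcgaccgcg
Pck1: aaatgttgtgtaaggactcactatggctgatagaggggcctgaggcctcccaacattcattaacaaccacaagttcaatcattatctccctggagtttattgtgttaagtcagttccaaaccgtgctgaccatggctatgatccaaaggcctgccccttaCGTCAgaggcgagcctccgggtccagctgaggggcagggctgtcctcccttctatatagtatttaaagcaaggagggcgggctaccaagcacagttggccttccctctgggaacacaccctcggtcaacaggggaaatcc

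The Igfbp1 window (chr11:7197537-7197836, plus strand) held CAAAACAA from 108 to 101 bases before the start, letters found in 2.51% of 32851 windows of the same length. The Pck1 window (chr2:173152823-173153122, plus strand) held CGTCA, the reverse complement of TGACG, from 90 to 86 bases before the start, and 20.8% of windows held this motif. The Pdk4 window (chr6:5496229-5496528, minus strand) held none of the letters searched. In the other windows TGACG matched in Ppargc1a and Fgf21, CACGTG in Fgf21 and TATAAA in Fgf21 and G6pc. CACGTG was in 7.15% and TATAAA in 13.6% of windows. The remaining motifs matched in none of the 8 windows, against 3.65% of all windows for GTAAACA, 1.79% for TGACGTCA, 0.0396% for the nuclear receptor repeat, 6.85% for ACANNNTGT and 0.938% for TTATGTAA. A match is a description of letters and was not tested for binding.

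Apart from Pdk4, whose levels were nearly equal in the control tissues, the genes differed first of all by tissue. All 9 were well above background in liver, 8 in kidney and 6 in brain, and none was saturated. Of the 8 measured in both kidney and liver, 1 was called higher in control kidney than in control liver (Ppargc1a) and 4 lower (Tat, Angptl4, Igfbp1, Pck1), where 27.3% of all genes were called in either direction.

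Pck1, which encodes the cytosolic enzyme that turns oxaloacetate into phosphoenolpyruvate, was at levels of 5.69, 5.85 and 5.63 in control, low-dose and high-dose kidney. In liver it was at 7.14 at high dose and 6.89 in control. All 3 brain spots were not well above background, and the control levels were at least 1586-fold higher in kidney and at least 3630-fold higher in liver than in brain. These lower limits divide the bright level by the dimmest signal counted as above background on the brain array, or by the dim spot itself where that was brighter. G6pc encodes the catalytic subunit of glucose-6-phosphatase, the enzyme that frees glucose for export. Its levels were 4.92, 4.66 and 4.65 in control, low-dose and high-dose kidney, 5.70 in high-dose liver and 5.82 in control liver. Brain stood far below both at -3.03, -3.35 and -3.29, a control difference of 7.96 between kidney and brain. Control kidney minus control liver was -1.19 for Pck1 and -0.90 for G6pc. Those differences became -0.56 and -0.30 when the arrays were quantile-normalized, so that Pck1 no longer passed 1.

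Tat had the widest contrast between kidney and liver of the 8 genes measured in both. This aminotransferase, induced by glucocorticoids in hepatocytes, was at 6.07 in high-dose and 6.07 in control liver. Its kidney levels were -1.88, -2.33 and -2.73 in control, low-dose and high-dose arrays, and its brain levels -1.47, -1.17 and -1.38. Its control kidney level was 248-fold lower than its control liver level (a difference of -7.95, which was -7.24 with quantile normalization and -6.73 with normexp and quantile normalization). In the controls kidney and brain were within 0.41 of each other (kidney minus brain -0.41). Ppargc1a, the coactivator known as PGC-1 alpha, ran the other way. Its reported probe was at 2.50, 2.57 and 2.47 in kidney and 1.62, 1.45 and 1.54 in brain (control, low and high dose), against 0.29 in high-dose and 0.49 in control liver. The order kidney, brain, liver held on its second probe, with 0.87, 0.87 and 0.91 in kidney, -0.23, -0.31 and -0.19 in brain, and -1.49 and -1.23 in high-dose and control liver.

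The genes of mitochondrial fuel choice had unlike tissue patterns. Pdk4 encodes a kinase that shuts down pyruvate dehydrogenase and so spares glucose. Its levels were nearly equal in the control tissues, at -0.91 in kidney, -0.87 in liver and -0.74 in brain, and none of these neighbours differed by more than the array error of about 0.21. The exposed arrays gave -0.44 and -1.39 in low-dose and high-dose kidney, -2.12 in high-dose liver, and -0.60 and -0.69 in low-dose and high-dose brain. High-dose liver was thus the lowest of the 8 arrays and low-dose kidney the highest. Cpt1a encodes the enzyme that admits long-chain fatty acids to mitochondria in liver and kidney. It was at 4.49, 4.53 and 4.43 in control, low-dose and high-dose kidney, and at 5.11 in high-dose and 4.65 in control liver. In brain it was lower, at 0.26, 0.23 and 0.23. Control kidney and control liver differed by -0.17, within the array error, and quantile normalization turned this to 0.31.

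The secreted proteins were highest in liver. Igfbp1, which binds insulin-like growth factors and is repressed by insulin, was at 1.58 in high-dose and 2.99 in control liver. In kidney it was at 0.66, 0.36 and 0.46 in control, low-dose and high-dose arrays, 5.04-fold lower in control kidney than in control liver, and in brain no spot was well above background. Fgf21, a fasting hormone made mainly by liver, was at 0.10 in high-dose and -0.31 in control liver. It was not well above background in any kidney or brain array, so control kidney was at least 23.2-fold lower than control liver. Angptl4, an inhibitor of lipoprotein lipase made by fat, liver and other tissues, was at 4.93 in high-dose and 5.38 in control liver. Its kidney levels were 2.80, 3.05 and 2.50 and its brain levels -0.78, -0.84 and -1.08 (control, low and high dose). Angptl4 was 5.96-fold lower in control kidney than in control liver, a difference of -2.57. That difference was -1.96 with quantile normalization and -1.91 with normexp as well.

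**Figure D1:**
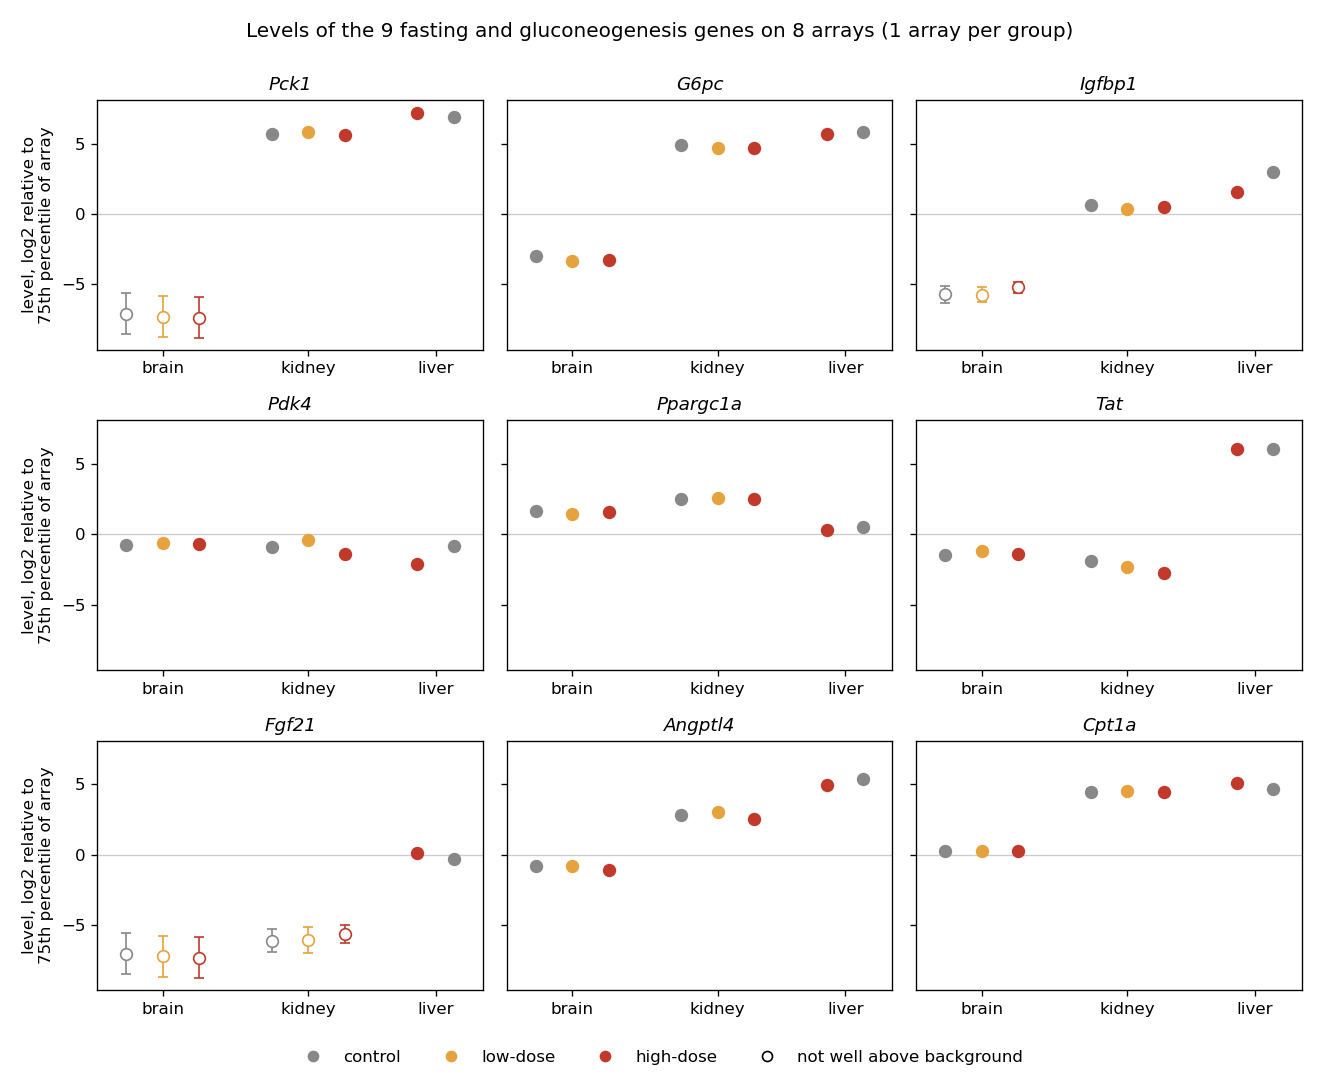
Levels of the 9 genes (log2 relative to the 75th percentile of the array, vertical axis) on each of the 8 arrays, grouped by tissue, with colour for dose and open points for spots not well above background. Bars are the scanner error of the spot and lie within the point where not visible. Tat, Igfbp1, Fgf21 and Angptl4 were highest in liver, Ppargc1a highest in kidney, and Pdk4 alike in the control tissues.

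In liver, the high dose went with lower Igfbp1 and lower Pdk4 and with no called difference in the gluconeogenic enzymes. Of the 9 genes, 2 were called lower and 0 higher. Of all 19167 genes measured in both liver arrays 0.459% were called lower and 0.803% were called in either direction. The 9 genes were chosen with earlier results of these data known, so these shares cannot show an excess among them. The median of the 9 differences was -0.12, against -0.02 over all measured genes.

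Igfbp1 had a scanner signal of 1303 in high-dose liver and 3388 in control liver. The difference was -1.41, or 2.65-fold lower, with an array error of 0.20, and 99.8% of measured genes differed by less. Pdk4 had signals of 100 in high-dose liver and 234 in control liver. It was 2.39-fold lower, a difference of -1.26 with an array error of 0.22, and 99.7% of genes differed by less. The Pdk4 probe had low signals, and its call depended on the treatment of background. With a model-based correction that also adds an offset of 50 to every spot (normexp), its difference was -0.79, under the size required. It was also short of that size with the correction and no offset (-0.998) and with the offset alone (-0.95), both tried after these data were seen. Igfbp1 stayed past the size rule at all 12 alternative settings, between -1.41 and -1.22. Some of these settings change only the filter or the size threshold and leave its difference as it is. Probes printed repeatedly on the array varied between liver arrays with an SD of 0.14 over all 300 such probes and 0.05 over the bright ones, which covers spots and not tissue. The bright ones were 286 of the 300, set by their level in high-dose liver. Pdk4, at -2.12 on that array, lay below the limit for bright probes, so 0.05 does not describe it.

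The other 7 genes were not called in liver. The gluconeogenic enzymes differed by 0.25 (Pck1) and -0.12 (G6pc), and Tat by 0.00. Ppargc1a differed by -0.20 on its reported probe and -0.25 on the second. Among genes tied to fat oxidation and its hormone signals, Cpt1a differed by 0.45 and Fgf21 by 0.41, while Angptl4 differed by -0.45. These sizes exceeded those of 92.4%, 90.7% and 92.2% of measured genes, and each was about 2 array errors.

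Markers of liver cells and zones were close on both arrays. The summed level of the 20 hepatocyte markers was 13.69 in high-dose and 13.73 in control liver, with a median difference of -0.03. Periportal hepatocyte markers, which share their zone with gluconeogenesis, had a summed level of 8.94 in high-dose and 9.21 in control liver, and 8 of 10 were below control with a median of -0.14. Pericentral markers had a median difference of 0.13 with 9 of 11 above control. Of all genes measured in liver, 53.9% lay below control. Clock genes differed in the same pair of arrays. Of 16 measured of 19, 4 were called higher in high-dose liver (Usp2 by 2.65, Dbp by 2.53, Per3 by 1.97, Per1 by 1.88) and 1 lower (Arntl, -1.58). The part of zone markers and clock genes in the Igfbp1 and Pdk4 differences was not tested.

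In kidney, none of the 8 measured genes was called at either dose. The background was 1.66% of 21356 genes for high dose against control, 0.492% for low dose against control and 1.08% for high against low dose. At high dose 7 of 8 lay below control kidney on their single probe, and Ppargc1a was at -0.03 on its reported and 0.04 on its second probe. Of all measured genes 56.0% lay below control. Their median difference was -0.24, against -0.03 for all genes. At low dose 5 lay above and 3 below control, with a median of 0.06.

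Tat had the largest kidney difference of the 8 genes at high dose. Its scanner signals were 198 in control, 148 in low-dose and 118 in high-dose kidney, and its differences from control were -0.45 at low and -0.84 at high dose. The high-dose value, 1.79-fold lower with an array error of 0.22, was larger in size than that of 97.5% of measured genes. It was 3.8 times the array error but short of 2-fold, and it was -0.58 and -0.53 with normexp and its offset of 50 (without and with quantile normalization). Without the offset normexp gave -0.72, and the offset alone gave -0.65. Hepatocyte markers, which Tat accompanies in liver, had 6 of 17 measured members called higher and 2 lower in high-dose kidney, with 13 of 17 above control and a median difference of 0.48. Their summed level, by contrast, was 7.94, 7.78 and 7.62 in control, low-dose and high-dose kidney. Their part in the Tat value was not tested.

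Pdk4 did not keep 1 direction over the doses. It differed from control kidney by 0.47 at low dose and by -0.48 at high dose, each with an array error of about 0.21. High dose minus low dose was -0.95, or 4.6 times its array error, and 98.8% of genes differed by less. Angptl4 had the same order of arrays, with 0.24 at low dose, -0.31 at high dose and -0.55 between them. Because the differences from control share the control array, they are given side by side and not as separate evidence.

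The other kidney genes were close to control. Pck1 differed by 0.16 at low and -0.06 at high dose, Cpt1a by 0.04 and -0.06, and Ppargc1a by 0.07 and -0.03. The enzyme gene G6pc differed by -0.26 and -0.27, and Igfbp1 by -0.30 and -0.20. All of these were within 1.5 times the array error.

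Other cell types in the kidney pieces also differed between the arrays. Proximal tubule markers, the cells in which kidney makes glucose, had summed levels of 11.39, 11.34 and 11.21 in control, low-dose and high-dose kidney. At high dose 11 of 16 lay below control, with a median difference of -0.17. Adipocyte markers had summed levels of 5.89, 5.68 and 5.40, with 11 of 12 below control at high dose (1 of them called) and a median of -0.56. All 6 measured of 12 adrenal markers lay below control, with a median of -0.54 and 2 called lower, and their summed level was 2.57, 0.71 and 0.65. Other lists lay above control at high dose: thick limb and distal tubule markers in 9 of 10 (median 0.18), collecting duct and medulla markers in 10 of 12 (median 0.19, 1 called), macrophage markers in 5 of 7 (median 0.47) and red cell markers in 7 of 7 (median 0.18). Fat cells also make Pdk4 and Angptl4. The part of these cell types in the kidney values was not tested.

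**Figure D2:**
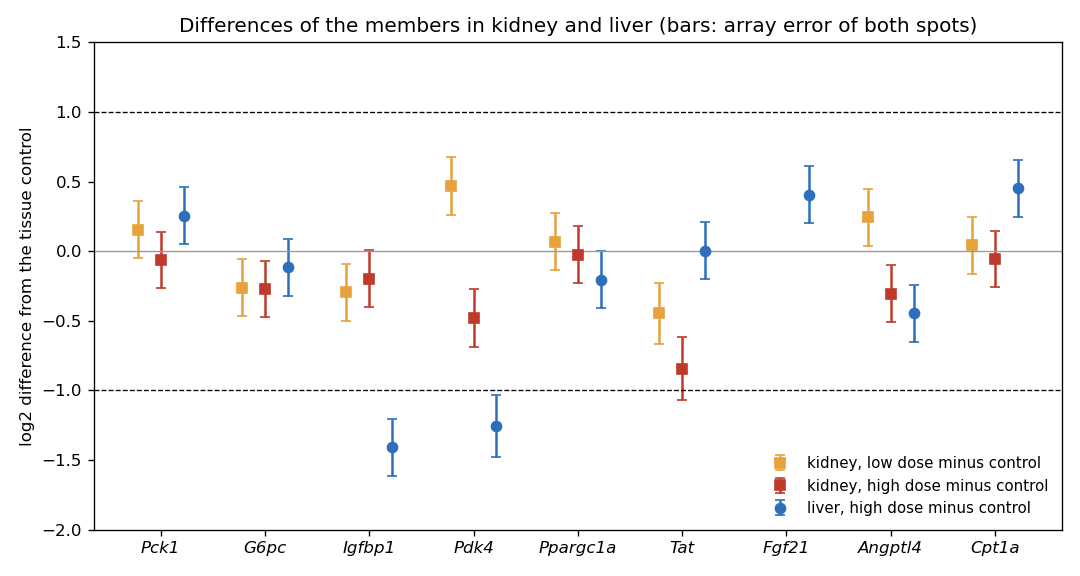
Log2 differences from the control array of the same tissue for the 9 genes, with low-dose kidney, high-dose kidney and high-dose liver side by side. Bars are the array error of both spots, and dashed lines mark the size of 1 that a call required. Igfbp1 and Pdk4 in high-dose liver are the values below -1, and Fgf21 is shown for liver alone because no kidney spot was well above background.

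Liver and kidney were set against each other for the high dose, gene by gene, by subtracting the liver difference from the kidney difference. Of 8 genes 1 was called, with 1.64% of 18315 genes called. Igfbp1 differed by -0.20 in kidney and -1.41 in liver, a gap of 1.21 with an array error of 0.29, larger than that of 98.7% of genes. Tat had a gap of -0.85, with -0.84 in kidney and 0.00 in liver. Pdk4 had a gap of 0.78, being below control in both tissues (-0.48 in kidney, -1.26 in liver). Cpt1a had a gap of -0.51, while those of Pck1 (-0.32), Ppargc1a (0.18), G6pc (-0.16) and Angptl4 (0.14) were about 1 array error or less. With 1 array per group, none of these gaps could be tested.

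In brain, where neither gluconeogenesis nor the hepatic hormones are expected, 6 of the 9 genes were measured and none was called at either dose. Of all genes 0.452% were called at high and 0.745% at low dose. G6pc differed by -0.31 at low and -0.26 at high dose, Tat by 0.30 and 0.09, and Angptl4 by -0.06 and -0.31. Pdk4 differed by 0.14 and 0.05, Cpt1a by -0.03 and -0.03, and Ppargc1a by -0.17 and -0.07. The Pdk4 values in brain were within the array error, unlike those at high dose in liver and kidney.

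A high-dose effect shared by the 3 tissues was fitted over all 8 arrays with limma, tissue and dose being the terms. It used the 17448 genes well above background on every array. The fit takes the arrays of a dose as independent, and whether their tissues came from the same animals is not given. Its errors, intervals and p-values therefore need not measure the spread between animals. No gene passed an adjusted p of 0.05, while 1180 genes (6.76%) had an unadjusted p under 0.05. Only 6 of the 9 genes could enter, because Pck1, Igfbp1 and Fgf21 were not above background in brain. The limma estimate for Angptl4 was -0.35 (SE 0.08, 95% interval -0.53 to -0.18), with an unadjusted p of 0.002 and an adjusted p of 0.689, and the gene lay below control at high dose in 3 of 3 tissues. G6pc had a limma estimate of -0.22 (SE 0.06, unadjusted p 0.005, adjusted p 0.689) and was likewise below control in 3 of 3 tissues. These directions come from the same arrays as the fit and add nothing to it. At high dose 56.0% of measured genes lay below control in kidney, 53.9% in liver and 50.9% in brain. The share below control in all 3 tissues was not counted. For Pdk4 the limma estimate was -0.56 (SE 0.24, unadjusted p 0.047, adjusted p 0.689), with brain at 0.05. Tat, Ppargc1a and Cpt1a had limma estimates of -0.25, -0.10 and 0.12 with adjusted p-values of 0.742, 0.731 and 0.766. The residual of this fit, with 3 degrees of freedom, holds the difference between tissues in the dose effect as well as noise.

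Related genes from 11 pathway lists were counted by the same size rule, against a background of 0.803% of all genes called in liver and 1.66% in kidney. At such shares 0 or 1 called gene in a list of this length is near the background. Of all measured genes, 53.9% lay below control in high-dose liver and 56.0% in high-dose kidney, with medians of -0.02 and -0.03. In high-dose liver none of the 21 measured genes of the gluconeogenesis list (enzymes and carriers other than Pck1 and G6pc) was called, and their median difference was 0.00. In high-dose kidney 0 of 21 were called, with a median of -0.06. Of paralogs and partners of the 9 genes, 0 of 29 were called in liver. In kidney 1 of 32 was called: Igfbp2, another binding protein for insulin-like growth factors, which was higher by 1.30. At low dose in kidney 0 genes of any of the 11 lists were called.

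The next lists are tied to hormone signals. Of 23 measured insulin and FOXO pathway genes none was called in liver, with a median of 0.14. In kidney 1 of 24 was called, Trib3, a stress-induced pseudokinase that binds AKT, higher by 1.76. Of the glucagon and cyclic AMP list 1 of 25 was called in liver, Per1 by 1.88, which is also a clock gene. In that list 21 of 25 lay above control in liver, with a median of 0.16. In kidney 1 of 25 was called, the stress factor gene Atf3, by 1.34. The glucocorticoid response list had Per1 called higher and Cdkn1a lower (-2.18) among 20 genes in liver. Cdkn1a, which encodes the cell cycle inhibitor p21, was called higher by 1.13 among 18 genes in kidney. Its opposite direction in the tissues was not tested.

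Lists tied to fuel use had 0 or 1 called gene each. Of fatty acid oxidation and ketone synthesis genes, 1 of 37 was called in liver (Acot3, a peroxisomal thioesterase, by 1.72) and 1 of 36 in kidney (Fabp1, the liver fatty acid binding protein, by 1.43). The medians were 0.06 in liver and 0.03 in kidney. In the list of fed-state glycolysis and lipid synthesis, 18 of 22 genes lay below control in liver, with a median of -0.31. Of all genes measured in liver, 53.9% lay below control. The 1 called gene of the list was Pfkfb3, a regulator of glycolysis, higher by 1.07. In kidney 0 of 22 were called, with a median of -0.12. Of amino acid breakdown and urea cycle genes 0 of 31 were called in liver (median -0.07) and 1 of 25 in kidney (Ftcd, an enzyme of histidine breakdown, by 1.04). The renal ammonia and acid response list had 0 of 17 called in kidney and 0 of 13 in liver.

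ATF4 targets, genes of the amino acid response, had the most called genes of the 11 lists in kidney. Of 21 measured, 4 were called higher at high dose: Chac1 by 1.79, Trib3 by 1.76, Gdf15 by 1.25 and Asns by 1.20. In liver 3 of 20 were called higher: Asns by 1.39, Psat1 by 1.12 and Mthfd2 by 1.01. The median of the list was 0.33 in kidney and 0.33 in liver. Fgf21 and Igfbp1 are known ATF4-responsive genes, and in liver they differed by 0.41 and -1.41. Of 16 measured clock genes 1 was called in kidney, Dbp by 1.47, against the 5 in liver given above.

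**Figure D3:**
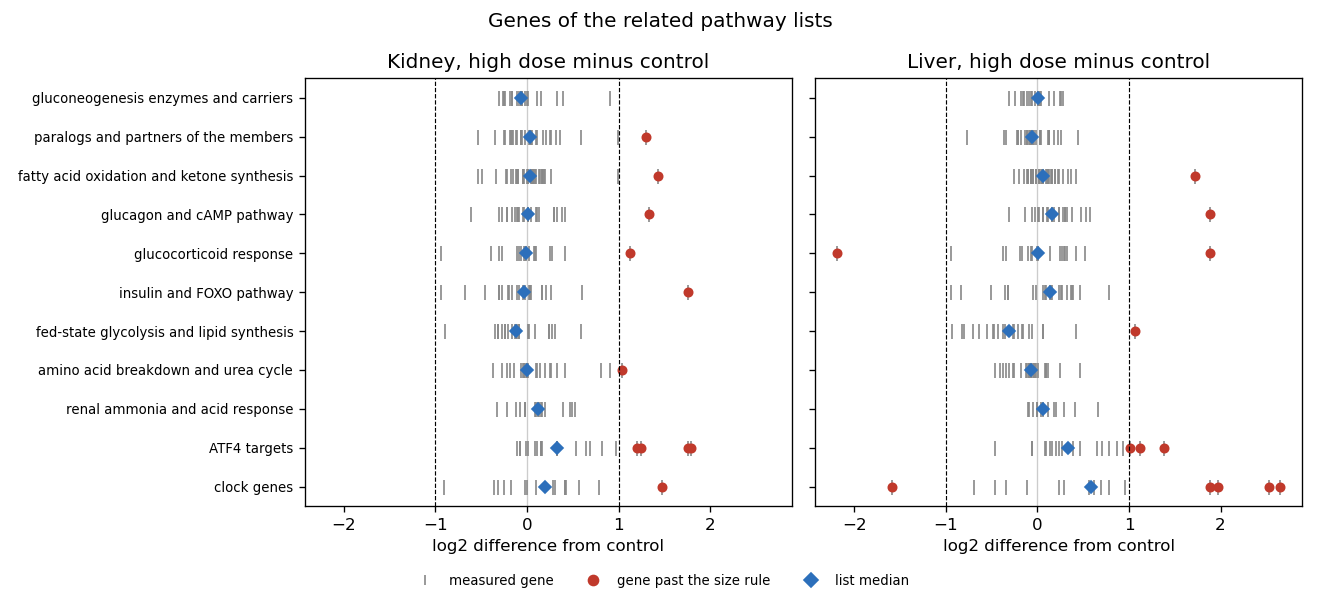
Log2 differences of every measured gene of the 11 pathway lists for high dose minus control in kidney and liver, with list medians and with genes called by the size rule as filled circles. The gluconeogenesis list has no called gene in either tissue, and ATF4 targets and clock genes hold most of the calls.

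For 8 of the 9 genes, the profiles most like it over the 8 arrays were found among 16194 genes, by the root mean square distance between mean-centred levels. Pdk4 was nearest to Pou2f1 (0.24) and Cdnf (0.25), with Pearson r of 0.92 and 0.87. Igfbp1 was nearest to Hsd3b6 (0.36) and Selenbp1 (0.37), and Tat to Cyp4f14 (0.36) and Hamp2 (0.39). The other nearest genes were Ces1f (0.43) and Cfb (0.45) for Pck1, Anks4b (0.16) for G6pc, and Tctex1d2 (0.09) and Tacc2 (0.11) for Ppargc1a. Angptl4 was nearest to Cyp7b1 (0.18) and Pxmp2 (0.19), and Cpt1a to Shmt2 (0.15) and Lipa (0.18). Apart from Pdk4, whose tissue levels were alike, these distances mainly describe the contrast between tissues that the arrays share. Those of Pck1 and Igfbp1 include 3 brain spots not well above background, and Fgf21, above background on the 2 liver arrays alone, is given no nearest gene.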

How the data were processed

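Arrays of 1 design, all on 1 slide, were hybridised with Cy3-labelled RNA. The deposited scanner files hold spot intensity from Agilent Feature Extraction 12.0.3.1 (version per the submitters' processing notes). Per the file headers, background was subtracted and a spatial trend removed, with no scaling across arrays. The deposited files also hold 0 or 1 flags and other spot annotation of the scanner software, per the file headers. A value table of intensity, also deposited, equals the processed signal divided by the 75th percentile over all spots of its array, within 0.1% for 100% of 62976 rows, so it is linear with a known direction. Its column medians were 0.112, 0.113 and 0.114 in brain, 0.0940, 0.0905 and 0.0936 in kidney (control, low, high dose), and 0.0918 and 0.0915 in high-dose and control liver.

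Control and outlier spots were left out, spots of a probe averaged, and the brightest probe over the 8 arrays taken for a gene. RefSeq (GRCm38.p6) named 32989 probes by accession, changed 1534 names and left 23616 as in the files. Named genes were the 9 members, list genes past the size rule (at most 4 per list and comparison) and the 2 nearest profiles, of which 1 is not reported here. Members and lists were chosen with earlier results of these data known, and the lists are given as counts without a test. The limma 3.58.1 fit ran in R 4.3.3 (trended empirical Bayes, Benjamini-Hochberg adjustment), and the rest in Python 3.11.15 with numpy 2.4.6 and pandas 2.3.3. The scripts were tested on simulated data. Alternatives changed normalization, background correction, filter, probe choice and size threshold. The number of arrays, 1 per group, limits the precision.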

Additional observations from a re-analysis of the deposited data

Results flagged for a closer look

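Pdk4 in kidney lay on opposite sides of control at the 2 doses. It was 0.47 above control kidney at low dose and -0.48 from control kidney at high dose, each more than 2 times its array error, so that high dose minus low dose was -0.95. Each side is 1 array, both share the control array, and the difference was not tested.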

How the results depend on the processing

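No paired analysis was possible because each group has 1 array and so no replicate numbers to pair; the limma fit keeps tissue as a term. Alternative settings numbered 12, 2 of them chosen after seeing the data. Under these, 709 of 732 differences of the 9 genes stayed within 1 array error, 23 moved by more, and 0 called differences changed sign. The settings of filter and size threshold leave a difference as it is, and averaging probes can change Ppargc1a alone. Part of the 709 was therefore fixed in advance. In liver the count of genes called among the 9 was 1 (Igfbp1) in place of 2 with normexp background correction (offset 50), alone or with quantile normalization, where Pdk4 differed by -0.79 and -0.86. It was also 1 with normexp without the offset and with 50 added to the processed signal, the 2 added settings, where Pdk4 differed by -0.998 and -0.95. With 1.5-fold in place of 2-fold, the count was 1 in place of 0 for high-dose kidney against control (Tat) and 1 in place of 0 for high against low dose (Pdk4). A limma fit on the kidney and liver high-dose and control arrays alone, with 1 residual degree of freedom, gave 1 of 18315 genes in place of 0 at an adjusted p of 0.05, with adjusted p from 0.753 to 0.941 for the genes described here. Over all genes, calls in high-dose liver numbered 154, against 49 with normexp, 44 with normexp and quantile normalization, 98 with a signal of at least 50, 242 without a filter and 399 at 1.5-fold. In high-dose kidney they numbered 354, against 151, 141, 248, 542 and 726 under the same settings, and in low-dose kidney 103, against 19, 18, 64, 209 and 213. For high against low dose in kidney 226 genes were called, against 110 and 104 with the 2 normexp settings, 394 without a filter and 438 at 1.5-fold. In high-dose brain 103 were called, against 38, 30, 191 and 219 under these 4 settings, and in low-dose brain 169, against 69 and 61 with normexp and 374 at 1.5-fold. The higher calls were 67.5% of those in high-dose kidney, and 83.4% and 84.4% under the 2 normexp settings. Genes of the pathway lists called in kidney numbered 10, against 6, 5 and 22 with normexp, normexp with quantile normalization and 1.5-fold, and in liver 11, against 27 at 1.5-fold. The 2 added settings were normexp without the offset and 50 added to the processed signal. Over all genes they gave, in that order, 83 and 54 calls in high-dose liver and 233 and 174 in high-dose kidney. The counts were 56 and 26 in low-dose kidney, and 163 and 122 for high against low dose in kidney. In brain they were 63 and 52 at high dose and 106 and 82 at low dose. Low signal limits Pdk4 in liver and Tat in kidney. An offset shrinks a difference of dim spots by construction, and normexp without the offset also gave smaller differences for both.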

Other observations

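Several genes next to the 9 in the same pathways had sizable values short of a call. They were chosen after their values were seen and carry no test. In high-dose liver against control, lipid synthesis genes included Acly at -0.80, Fasn at -0.70 and Gpam at -0.63, and the sterol pathway genes Insig1 and Insig2 were at -0.94 and -0.83. Thrsp, a lipogenic gene of the same list, was at 0.42. Igf1, the growth factor that the Igfbp1 protein binds, was at -0.77 in liver and -0.25 in kidney. Bcl6, a transcriptional repressor on the insulin and FOXO list, was at -0.94 in kidney and -0.94 in liver.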
